A study of Mus musculus with 8 samples.

Results

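The 9 complement genes described here are C1qa, C1qb and C1qc, Serping1, C4b, C3, Cfb, C3ar1 and C5ar1, chosen by symbol as components and receptors of the complement system. All 9 were found among the 15047 genes of the deposited table. The libraries are RNA-Seq of pancreas from 8 males in 3 groups. The 3 LFD mice (C57BL/6 WT) received a low-fat diet and the 3 HFD mice (C57BL/6 WT) a high-fat diet with 60% of calories from fat, each for 10 weeks from the age of 4 weeks. The 2 ob/ob mice (C57BL/6J; ob/ob) lack leptin and were fed standard chow, also from the age of 4 weeks. Per the study, the pancreata of all 3 groups carried orthotopically transplanted mT organoids, which come from pancreatic tumors of genetically engineered mice with Cre under the pancreatic Pdx1 promoter. The sample labels name the pancreas and do not mention the transplant. Each library therefore can hold transplanted tumor cells, host pancreas and infiltrating cells, and in such bulk tissue more cells of a type and more RNA per cell cannot be told apart. HFD and ob/ob mice stand for diet-induced and genetic obesity, and the ob/ob group differs from LFD in genotype and in chow at the same time.

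Complement is a cascade of plasma and tissue proteins that tag and lyse targets and recruit leukocytes. In the classical pathway C1q, built from the chains of C1qa, C1qb and C1qc, binds its target and activates the proteases C1r and C1s, which cleave C4 and C2 and are blocked by the C1 inhibitor encoded by Serping1. The cleaved products, and factor B (Cfb) in the alternative pathway, form the enzymes that split C3. The fragments C3a and C5a act on the receptors C3ar1 and C5ar1 of myeloid cells. Tissue macrophages are a well known source of C1q, whereas most C3, C4 and factor B in plasma is made in the liver.

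The deposited values are rlog values, a log2 scale corrected for library size that lowers differences of weakly expressed genes. They are not divided by transcript length, so a gene is compared only with itself between mice. The depth of the libraries is unknown from these values, and the error given is the spread between mice. Differences are log2 differences of group means tested with limma over all 15047 genes, with Benjamini-Hochberg adjustment, and "obese" is the mean of the HFD and ob/ob groups against LFD. All 21 acinar markers were measured, with mean rlog values between 10.8 (Ctrc) and 19.7 (Cela2a); they include the enzymes that define the labelled tissue. The acinar mean was between 18.7 and 19.2 in LFD and spread from 15.0 to 19.1 in HFD and from 15.3 to 18.4 in ob/ob. HFD replicate 1, at 19.1, had an acinar mean within the range of the LFD mice, and values without it are given where a result rests on it.

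The promoters are shown to place the start sites of C1q and C3 genes, and to compare short motifs of factors active in myeloid cells and inflammation. Promoters of 5 of the 9 genes were matched in the RefSeq table of GRCm38.p6 (C1qb, C1qc, C3, C3ar1 and C5ar1), and the search covered the 250 bases before each start on both strands. The letters searched were GAGGAA (a PU.1-type core, in 23.3% of 32851 promoters), AGGAAG (an ETS core, 29.5%) and TTNCGNAA (C/EBP, 2.04%), of which the first and second can overlap. Capitals mark every match, and the sequences are on the minus strand, printed 5′ to 3′ up to the RefSeq start, or to the first base of the gene in Gencode M21 where that lies further upstream.
C1qb, chr4:136886201-136886450: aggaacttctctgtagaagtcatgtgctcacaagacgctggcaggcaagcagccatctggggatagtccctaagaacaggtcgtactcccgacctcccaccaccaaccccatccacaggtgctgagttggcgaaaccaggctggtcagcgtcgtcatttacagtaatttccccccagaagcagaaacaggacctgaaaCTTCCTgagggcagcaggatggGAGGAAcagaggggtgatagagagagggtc
C1qc, chr4:136893066-136893164: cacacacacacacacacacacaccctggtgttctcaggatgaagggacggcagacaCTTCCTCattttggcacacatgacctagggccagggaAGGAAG
C3, chr17:57228137-57228386: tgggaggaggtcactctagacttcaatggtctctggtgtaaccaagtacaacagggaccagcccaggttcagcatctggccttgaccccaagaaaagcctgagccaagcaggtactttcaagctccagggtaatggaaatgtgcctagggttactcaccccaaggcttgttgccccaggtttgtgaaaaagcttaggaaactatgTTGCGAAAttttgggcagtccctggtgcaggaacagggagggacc

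The windows of C1qb and C1qc each held 1 PU.1-type core, beginning 30 and 193 bases before the RefSeq start. The RefSeq start of C1qc lies within the gene of Gencode M21, so the stretch printed for C1qc ends before it. They also held 1 and 2 ETS cores, and that of C5ar1 held 3 ETS cores. The window of C3 held 1 C/EBP match, beginning 45 bases before the start, and that of C3ar1 held no match. These are matches of letters only, and the PU.1-type and ETS cores are common among all promoters, as the shares above show. The promoters of C1qa, C4b, Cfb and Serping1 were not in the table.

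In each of the 3 chains of C1q every obese mouse lay above every LFD mouse, as was also the case in C3ar1. The genes lie side by side on the minus strand of chromosome 4 of GRCm38 (Gencode M21), C1qb at chr4:136880129-136886187, C1qc at chr4:136889804-136893065 and C1qa at chr4:136895917-136898803, within 18.7 kb. C1qa (the A chain) had rlog values of 9.73, 9.92 and 9.75 in LFD, in the order of the replicates, of 10.29, 11.42 and 10.69 in HFD, and of 11.18 and 11.97 in ob/ob. C1qb (the B chain) was at 9.27, 9.44 and 9.16 in LFD, at 10.03, 11.05 and 10.32 in HFD, and at 10.86 and 11.45 in ob/ob. C1qc (the C chain) was at 9.42, 9.68 and 9.09 in LFD, at 9.99, 11.09 and 10.23 in HFD, and at 10.78 and 11.53 in ob/ob. In each chain HFD replicate 1 was the lowest and ob/ob replicate 2 the highest of the obese mice, and the HFD and ob/ob mice overlapped. The order of the 5 obese mice was the same in the 3 chains, as HFD replicates 1 and 3, ob/ob replicate 1, HFD replicate 2 and ob/ob replicate 2.

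Between HFD and LFD, C1qa was higher in the mean by 1.00 (SE 0.31, limma adjusted p = 0.191), C1qb by 1.17 (SE 0.28, adjusted p = 0.177) and C1qc by 1.04 (SE 0.32, adjusted p = 0.192). Between ob/ob and LFD the differences were 1.77 (SE 0.35, adjusted p = 0.139), 1.86 (SE 0.31, adjusted p = 0.137) and 1.76 (SE 0.36, adjusted p = 0.152). Over both obese groups they were 1.39, 1.52 and 1.40, with limma adjusted p-values of 0.0892, 0.0810 and 0.0923. A two-sided exact permutation test of the 5 obese against the 3 LFD mice gave p = 0.0357 for each chain, the smallest p that this design allows. None of these passed adjustment over all genes. The chains moved together from mouse to mouse: the log2 ratio of C1qa to C1qb had an SD of 0.108 over the 8 mice, whereas the genes themselves had SDs of 0.839 and 0.869. The SDs of the ratios with C1qc were 0.133 for C1qa and 0.121 for C1qb.

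**Figure D1:**
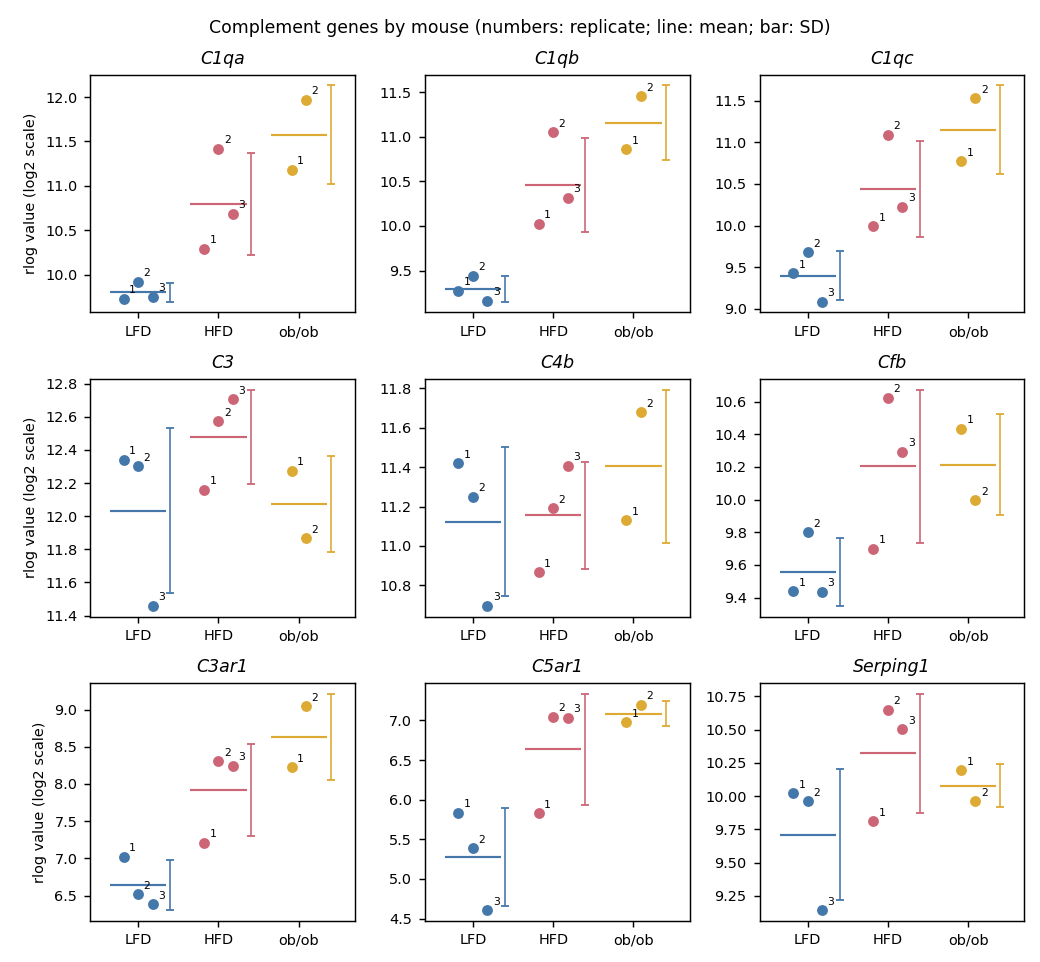
Each panel plots the rlog value (log2 scale) of 1 gene against the group, with 1 point per mouse numbered by replicate, a line at the group mean and a bar of 1 SD on each side. The panels have their own vertical axes. In C1qa, C1qb, C1qc and C3ar1 all 5 obese mice lie above the 3 LFD mice. In Cfb and C5ar1 only HFD replicate 1 lies within the LFD range, and in C3, C4b and Serping1 more than 1 obese mouse does.

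The receptors of the anaphylatoxins had the largest differences of the 9 genes in HFD and in the obese mean, while in ob/ob C1qb lay between C3ar1 and C5ar1. C3ar1 (chr6:122847138-122856161), the receptor of C3a, had rlog values of 7.02, 6.52 and 6.39 in LFD, of 7.21, 8.31 and 8.25 in HFD, and of 8.23 and 9.04 in ob/ob. Each obese mouse exceeded each LFD mouse, and HFD replicate 1 was the nearest to them. C5ar1 (chr7:16246743-16259540), the receptor of C5a, was at 5.84, 5.39 and 4.61 in LFD, at 5.83, 7.05 and 7.03 in HFD, and at 6.98 and 7.20 in ob/ob. Here HFD replicate 1 lay within the LFD range and the other 4 obese mice lay above it.

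C3ar1 was higher in the mean by 1.28 in HFD (SE 0.36, limma adjusted p = 0.180) and by 1.99 in ob/ob (SE 0.40, adjusted p = 0.142) than in LFD. For C5ar1 the differences were 1.36 (SE 0.42, adjusted p = 0.191) and 1.81 (SE 0.47, adjusted p = 0.186). Over both obese groups they were 1.64 for C3ar1 (SE 0.32, limma adjusted p = 0.0892) and 1.58 for C5ar1 (SE 0.38, adjusted p = 0.107). The two-sided exact permutation test of 5 against 3 mice gave p = 0.0357 for C3ar1 and 0.0714 for C5ar1. C5ar2, another receptor of C5a and a neighbour of C5ar1 on chromosome 7, was also higher in the mean in obese mice, by 1.00 (SE 0.29, limma adjusted p = 0.118).

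Among the components cleaved in the cascade, factor B, C3 and C4b each had a higher mean in both obese groups than in LFD. Only factor B was higher at an unadjusted p under 0.05 in limma. Cfb (chr17:34856374-34862518), the protease of the alternative C3 convertase, had rlog values of 9.44, 9.80 and 9.44 in LFD, of 9.70, 10.62 and 10.29 in HFD, and of 10.43 and 10.00 in ob/ob. Only HFD replicate 1 lay within the LFD range. The difference was 0.65 in HFD (SE 0.26, limma adjusted p = 0.226) and 0.66 in ob/ob (SE 0.29, adjusted p = 0.264). C3 (chr17:57203970-57228136), the protein on which the pathways converge, was at 12.34, 12.30 and 11.46 in LFD, at 12.16, 12.57 and 12.71 in HFD, and at 12.28 and 11.87 in ob/ob. The groups overlapped, and LFD replicate 3 stood below all other mice. C3 differed by 0.45 between HFD and LFD (95% interval -0.22 to 1.11) and by 0.037 between ob/ob and LFD (-0.71 to 0.78), with limma adjusted p-values of 0.402 and 0.958.

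C4b (chr17:34728380-34743882), the mouse gene of C4, was at 11.42, 11.25 and 10.70 in LFD, at 10.87, 11.19 and 11.41 in HFD, and at 11.13 and 11.68 in ob/ob. Its difference was 0.033 for HFD (95% interval -0.55 to 0.62) and 0.28 for ob/ob (-0.37 to 0.94), with limma adjusted p-values of 0.953 and 0.585. Serping1 (chr2:84765387-84775444), which encodes the C1 inhibitor, was at 10.02, 9.96 and 9.14 in LFD, at 9.81, 10.65 and 10.50 in HFD, and at 10.19 and 9.96 in ob/ob. LFD replicate 3 again stood below the other mice, and the groups overlapped. Serping1 differed by 0.61 for HFD (95% interval -0.06 to 1.29, limma adjusted p = 0.283) and by 0.37 for ob/ob (-0.39 to 1.12, adjusted p = 0.534). Each of these intervals for C3, C4b and Serping1 includes 0, and whether the 3 genes differed less than the C1q chains was not tested. The values of C4b and Cfb carry a further uncertainty, as 48.3% of the 31-base words of the C4b transcripts also occur in C4a and 75.5% of those of Cfb in the overlapping gene Gm20547, so reads can be split between them. C4a itself was at rlog values of 2.84 to 3.81 over the 8 mice.

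**Figure D2:**
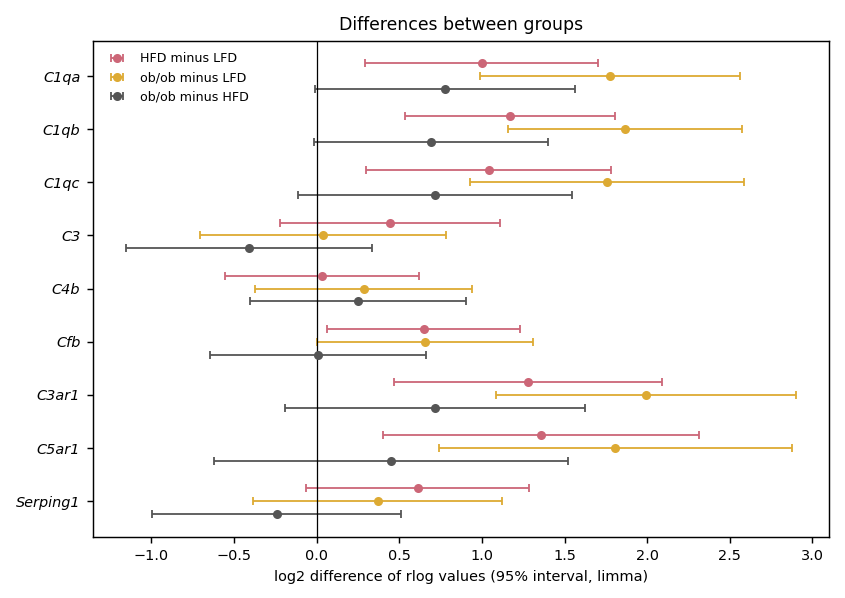
Points are log2 differences of rlog values with 95% intervals from limma, for HFD against LFD, ob/ob against LFD and ob/ob against HFD in the 9 genes. The intervals of the C1q chains, Cfb, C3ar1 and C5ar1 lie above 0 against LFD in both obese groups before adjustment, and all intervals between ob/ob and HFD include 0.

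Across the 9 genes, 0 had a limma adjusted p-value under 0.05 in any comparison, as did 0% of all genes. At an unadjusted p under 0.05, 6 of 9 were higher in HFD than in LFD, against 11.5% of all genes, and 6 of 9 were higher in ob/ob than in LFD, against 11.6% of all genes. In both they were C1qa, C1qb, C1qc, Cfb, C3ar1 and C5ar1, but the comparisons share the LFD mice. In the obese mean the same limit was passed by 6 of 9, against 14.5% of all genes. None was lower at this limit, against 8.35% of all genes in HFD, 7.18% in ob/ob and 10.9% in the obese mean. The median difference of the 9 genes was 1.00 for HFD, 1.76 for ob/ob and 1.39 for the obese mean, where the medians of all genes were 0.029, 0.039 and 0.041. All mice of the obese group lay above all LFD mice in 4 of 9 genes for HFD (12.9% of all genes), in 6 for ob/ob (24.1%) and in 4 for the 5 obese mice (9.4%). No gene lay below the LFD mice in this way, where 12.3%, 21.8% and 9.05% of all genes did.

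The calls depended on HFD replicate 1. Without it, 6 of 9 genes had a limma adjusted p-value under 0.05 in HFD against LFD, where 18.7% of all genes did, and 6 in the obese mean, where 22.1% of all genes did. These 6 were again the C1q chains, Cfb, C3ar1 and C5ar1, with differences in the obese mean between 0.78 (Cfb) and 1.81 (C3ar1) and adjusted p-values between 0.0118 and 0.0218. For ob/ob against LFD, 3 passed without that mouse (C1qa, C1qb and C3ar1), where 0.591% of all genes did. Without ob/ob replicate 1, 4 passed in the obese mean (C1qa, C1qb, C1qc and C3ar1), where 3.16% of all genes did. With a weight estimated for each mouse, 7 of 9 passed for HFD (44.2% of all genes) and 6 of 9 for the obese mean (28.5%). With only LFD and ob/ob mice in the fit, C1qa and C1qb passed for ob/ob (0.253% of all genes). LFD replicate 3 was the lowest mouse in 8 of the 9 genes, and ob/ob replicate 2 the highest in 6. Without LFD replicate 3, the differences of C3 and C4b over both obese groups became -0.046 and -0.055, and 0 of 9 genes had an adjusted p-value under 0.05.

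The 2 obesity models did not differ in any of the 9 genes at an unadjusted p under 0.05 (limma), a limit passed by 2.28% of all genes in the higher and 1.63% in the lower direction. The ob/ob mean was above the HFD mean by 0.78 for C1qa (95% interval -0.01 to 1.56), by 0.69 for C1qb (-0.02 to 1.40), by 0.72 for C1qc (-0.11 to 1.54) and by 0.71 for C3ar1 (-0.19 to 1.62). C3 and Serping1 had lower means in ob/ob than in HFD, with differences of -0.41 (-1.15 to 0.33) and -0.24 (-0.999 to 0.51). With 3 against 2 mice, the upper bounds lay above 1 on the log2 scale for the C1q chains, C3ar1 and C5ar1, so a difference of that size was not excluded for these genes. The differences of these 4 genes depended on single mice. Over the fits that left out 1 mouse they ran from 0.38 to 1.17 for C1qa, 0.40 to 0.99 for C1qb, 0.34 to 1.09 for C1qc and 0.31 to 1.12 for C3ar1, lowest without ob/ob replicate 2 and highest without ob/ob replicate 1. Without ob/ob replicate 1 these 4 genes were higher at an unadjusted p under 0.05, where 4% of all genes were, and without HFD replicate 2 the 3 chains were, where 2.33% of all genes were. At the same limit 4 of 9 were higher with the acinar mean as a covariate (4.29% of all genes), 3 with the replicate number as a block (1.89%) and 2 with each mouse centred on its median (2.33%). The ob/ob and HFD mice overlapped in all 9 genes, where 7.92% of all genes were higher and 5.42% lower without overlap.

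The means of the macrophage, fibroblast and neutrophil lists were also higher in the obese mice, though no single gene passed adjustment. At an unadjusted p under 0.05 in limma, 14.5% of all genes were higher and 10.9% lower in the obese mean. The mean rlog value of 12 macrophage markers was 7.55 to 8.07 in LFD, 8.31 to 9.22 in HFD, and 9.12 and 9.88 in ob/ob. All 12 had a higher mean in obese mice and 11 passed an unadjusted p under 0.05 in limma, with a median difference of 1.33. The fibroblast list was at 8.79 to 9.25 in LFD, 9.62 to 10.3 in HFD and 9.88 to 10.7 in ob/ob, with 8 of 11 higher at this limit. Of the 13 neutrophil markers 8 were measured, and their mean was 5.32 to 6.10 in LFD, 6.76 to 7.89 in HFD and 6.36 to 6.70 in ob/ob, with 7 of 8 higher at this limit. None of the 21 acinar genes had a higher mean in obese mice, and 2 were lower at this limit. HFD replicate 1 had the lowest macrophage and fibroblast means of the obese mice. It also had the lowest value of the obese mice in each of the 9 complement genes except C3.

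With the macrophage mean as a covariate, the obese difference was 0.21 for C1qa, 0.48 for C1qb, 0.13 for C1qc, 0.12 for C3ar1 and 0.015 for C5ar1, and none of the 9 genes was higher at an unadjusted p under 0.05 in limma, where 2.48% of all genes were. C4b was lower at that limit, with a difference of -0.76 (adjusted p = 0.811), where 2.96% of all genes were lower. With the fibroblast mean as a covariate the differences were 0.50, 0.78, 0.47, 0.25 and 0.25 for the same 5 genes, and C4b was at -0.76 (adjusted p = 0.566). With the acinar mean as a covariate they were 1.06, 1.27, 1.12, 1.08 and 1.10, and these 5 were higher at the unadjusted limit, where 6.75% of all genes were. The covariates differ between the groups themselves, so these fits do not separate a change per cell from a change in the cells present.

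**Figure D3:**
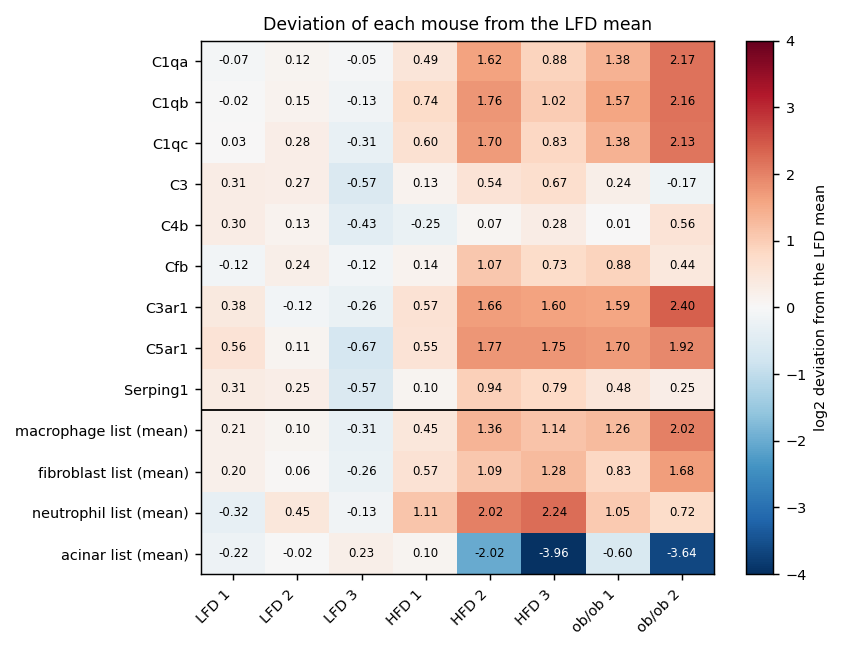
Each cell gives the log2 deviation of 1 mouse from the mean of the LFD mice, for the 9 complement genes in the upper rows and for the means of 4 marker lists below. Columns are the 8 mice. The C1q chains, C3ar1, C5ar1 and the macrophage list reach 1.92 to 2.40 in ob/ob replicate 2, whereas the acinar list is at -3.64 in that mouse and at -3.96 in HFD replicate 3.

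Of the islet markers, 5 of 7 (Chga, Iapp, Ins1, Ins2 and Pcsk2) were higher in ob/ob at an unadjusted p under 0.05 in limma. They were higher by 1.19 to 1.62 against LFD (11.6% of all genes) and by 1.61 to 1.98 against HFD (2.28%). None of the islet markers differed at this limit in HFD against LFD or in the obese mean. Of the ductal markers, 4 of 7 (Epcam, Krt19, Krt7 and Krt8) were higher in HFD than in LFD, by 0.88 to 1.79 (11.5% of all genes). These 4 were lower in ob/ob than in HFD (1.63%). Krt7 was also higher in the obese mean. Of the adipocyte markers 1 of 7 (Lep, which encodes leptin) was higher in HFD, in ob/ob and in the obese mean, and of the mesothelial markers 2 of 6 (Lrrn4 and Upk3b) were lower in each, while Msln was higher in HFD than in LFD. Of the 7 endothelial and 7 lymphocyte markers 0 passed the limit in any comparison. Between ob/ob and HFD, 2 of 12 macrophage markers were higher and 3 of 8 neutrophil markers lower. The part of these lists in the complement values was not tested, beyond the covariates above. Of 8 hepatocyte markers 3 were measured and none passed the limit in any comparison, and the mean of these 3 was 3.95 to 4.19 in LFD, 3.77 to 6.63 in HFD and 4.32 to 5.31 in ob/ob. The 6.63 was HFD replicate 3 alone, with 4.12 and 3.77 in HFD replicates 1 and 2.

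Of 42 further complement genes, 31 were measured. C1rb, C1s2, Masp2, Mbl1, Mbl2, Fcnb, Colec10, Hc, C8a, C9 and Cpn2 were not analysed here. None of the 31 had a limma adjusted p-value under 0.05 in any comparison. At an unadjusted p under 0.05, 10 were higher and 4 lower in the obese mean, where 14.5% and 10.9% of all genes were, and their median difference was 0.13. In HFD 6 were higher and 3 lower than in LFD, where 11.5% and 8.35% of all genes were, and in ob/ob 11 were higher and 2 lower, where 11.6% and 7.18% were. Between ob/ob and HFD 3 were higher (C8b, Fcna and Vsig4) and 0 lower, where 2.28% and 1.63% of all genes were. Without HFD replicate 1, 11 of the 31 passed adjustment in the obese mean, where 22.1% of all genes did. They included Cfp, Cfd, Vtn, Cpn1, Itgam, Itgax, Cd93, Colec12, C5ar2 and C7, with limma adjusted p-values from 0.0164 (Cd93) to 0.0474 (Colec12).

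In the alternative pathway, the stabiliser and the activating protease differed in opposite directions. Cfp, or properdin, which stabilises the C3 convertase, had rlog values of 8.03, 8.35 and 7.89 in LFD, of 8.76, 9.50 and 8.71 in HFD, and of 9.14 and 9.70 in ob/ob, a difference of 1.12 for the obese mean (SE 0.24, limma adjusted p = 0.0926). Cfd, or factor D, the protease that cleaves factor B and is also called adipsin after its expression in fat, was at 8.41, 7.67 and 7.50 in LFD, at 5.97, 6.78 and 5.79 in HFD, and at 6.31 and 5.15 in ob/ob. All 5 obese mice lay below all LFD mice, and the difference was -1.91 (SE 0.37, limma adjusted p = 0.0886). The mean of 7 adipocyte markers was 6.63 to 7.16 in LFD, 6.97 to 7.12 in HFD and 6.36 to 7.63 in ob/ob, with a median difference of 0.11. Without HFD replicate 1 both Cfp and Cfd had an adjusted p-value under 0.05, at 0.0170 and 0.0173.

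Among the regulators, 2 genes were lower in obese mice at an unadjusted p under 0.05 in limma. Vtn (vitronectin, which binds the terminal complex) was at 10.22, 10.13 and 10.15 in LFD, at 9.81, 8.14 and 6.73 in HFD, and at 9.60 and 6.91 in ob/ob. Cpn1 (the catalytic subunit of carboxypeptidase N, which inactivates anaphylatoxins) was at 9.74, 9.84 and 10.10 in LFD, at 9.63, 7.95 and 6.49 in HFD, and at 9.53 and 7.04 in ob/ob. In both genes HFD replicate 3 and ob/ob replicate 2 were the lowest mice, as in the acinar list. The obese differences were -1.93 for Vtn and -1.74 for Cpn1 (limma adjusted p = 0.161 and 0.183), and -0.30 and -0.13 with the acinar mean as a covariate. Without ob/ob replicate 2 they were -1.26 and -1.12, and without HFD replicate 1 they were -2.32 and -2.14. Both genes missed the unadjusted limit without LFD replicate 1, 2 or 3, HFD replicate 2 or ob/ob replicate 2 (limma p from 0.0506 to 0.135).

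Of the other receptors, Itgam and Itgax, the alpha chains of complement receptors 3 and 4 on myeloid cells, were higher in the mean by 1.44 and 1.61, and Itgb2, their shared beta chain, by 0.74 (limma adjusted p = 0.0926, 0.118 and 0.194). Itgb2 was at 0.44 without LFD replicate 3 (unadjusted p = 0.215), and it also missed the unadjusted limit without LFD replicate 2, HFD replicate 2, HFD replicate 3 or ob/ob replicate 2. Cd93, a surface protein once described as a C1q receptor, was higher by 0.95 (adjusted p = 0.144 in limma). In lectin recognition, Fcna (ficolin A) was higher in the mean by 0.56 and Colec12 (a collectin of the cell membrane) by 0.58, and in the activating proteases Masp1 was higher by 0.74 (limma adjusted p = 0.141, 0.132 and 0.128). Against LFD, Fcna differed by 0.11 in HFD (limma unadjusted p = 0.631) and by 1.01 in ob/ob (unadjusted p = 0.00244). Without LFD replicate 3, Cd93, Fcna, Colec12 and Masp1 each missed the unadjusted limit in the obese mean (limma p from 0.0561 to 0.0885). Cd93, Fcna and Colec12 missed it also without LFD replicate 2. The classical proteases C1ra and C1s1 differed by 0.081 and 0.027. Among the terminal components, C7 was lower in all 5 obese mice, at 5.20 to 6.82, than in LFD, at 7.22 to 7.56, a difference of -1.10 (limma adjusted p = 0.108).

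**Figure D4:**
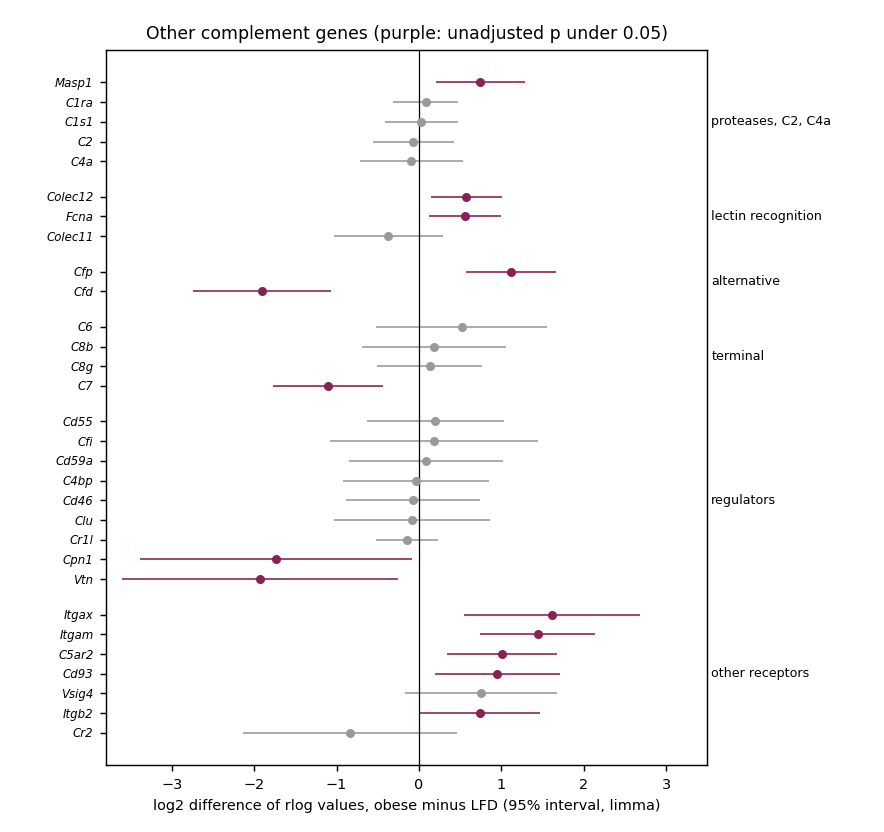
Points are log2 differences of rlog values between the obese mean and LFD with 95% intervals from limma, for 30 of the further complement genes measured, grouped by role. Purple marks the 13 of them with an unadjusted p under 0.05, of which 9 are higher and 4 (Cfd, C7, Vtn and Cpn1) lower in obese mice.

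The genes most like each of the 9 over the 8 mice were looked up by Pearson r among the 11833 genes whose rlog value averaged 5 or more. As the mice fall into lean and obese groups and n is 8, high values are common, and the median of the best r over all these genes was 0.980. C1qa was most like Ccl2 (0.991) and Ccl12 (0.990), C1qb was most like Ccl2 (0.995) and Pld4 (0.992), and C1qc was most like Cfp and Ccl2 (0.990 each). C3ar1 was most like P2ry6 (0.997) and Cyth4 (0.993), and C5ar1 was most like Slc8a1 (0.986) and Gng2 (0.984). Cfb followed Terf1 (0.983) and Gm9861 (0.960), and Serping1 followed Bcl9 (0.982) and Eepd1 (0.960). The best values of C3 (Map3k1, 0.964, and Prkg1, 0.963) and of C4b (BC037034, 0.970, and Scaf8, 0.966) were below that median.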

How the data were processed

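Pancreas RNA of 8 mice was sequenced (paired-end), and mice were grouped by their labels. After FASTQC, the authors ran Salmon 0.11.3 on the Gencode M18 transcriptome (GRCm38.p6), summed transcripts per gene with tximport and deposited rlog values of DESeq2 1.22.2, on a log2 scale, for 15047 genes. The filter that left these genes is not given in the sources used here. Counts were not used here, so depth is unknown and no counting error is given. All columns matched a mouse by name.

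Tests on these log2 values used limma 3.58.1 (R 4.3.3) with 3 group means fitted to all 8 mice, an empirical Bayes variance with a trend on the mean, and Benjamini-Hochberg adjustment over all genes. Tables were made with Python 3.11.15, pandas 2.3.3 and numpy 2.4.6. Single genes were also compared by a two-sided exact permutation test of 5 against 3 mice. The labels give 8 separate mice and no batch, so no values within batches were computed. The 9 genes, the wider complement list and the marker lists (acinar, macrophage, neutrophil, fibroblast, mesothelial, hepatocyte, adipocyte, endothelial, ductal, islet and lymphocyte) were chosen with earlier results of these data known. From the wider list, genes with an unadjusted p under 0.05 in the obese mean are named, except 1 that is counted but not reported here, and for each of the 9 genes the 2 most alike. C1ra and C1s1 (proteases of the classical pathway) and C4a (the paralog of C4b) are named outside this rule, as are the islet, ductal, adipocyte and mesothelial markers named, after their values were seen. Vsig4 is likewise named after its values were seen, for its difference between ob/ob and HFD.

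Positions were taken from Gencode M21 (GRCm38), and promoters from RefSeq (GRCm38.p6). Shared words of 31 bases were counted between transcripts of different genes in Gencode M21. On simulated data for HFD against LFD (15047 genes), limma called 0%, 26%, 94% and 100% of genes changed by 2, 4, 8 and 16 residual SDs, with 5 false calls. The alternatives were no trend in the variance, the compared groups alone, a minimum mean rlog value of 5, median centring, quantile normalization, array weights, a replicate block, covariates, and each mouse left out in turn. The fibroblast covariate, and the alternatives for the wider list, were chosen after seeing the data.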

Additional observations from a re-analysis of the deposited data

Results flagged for a closer look

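C8b, a chain of the terminal component C8, was higher in ob/ob than in HFD by 1.62 on the log2 scale (SE 0.47, limma unadjusted p = 0.00823, adjusted p = 1.0). It was singled out because all HFD mice lay below and both ob/ob mice above the LFD mean, but neither group passed the unadjusted limit of 0.05 against LFD. The limma differences were -0.63 for HFD (unadjusted p = 0.175) and 0.99 for ob/ob (unadjusted p = 0.0673). Without ob/ob replicate 1 the difference between ob/ob and HFD was 0.94 (unadjusted p = 0.0932), and without ob/ob replicate 2 it was 2.30. The rlog values were 2.94, 3.38 and 2.17 in LFD, 2.39, 2.15 and 2.07 in HFD, and 4.50 and 3.14 in ob/ob, a low level at which the transformation lowers differences, and LFD overlapped both groups. Fcna and Vsig4 were also higher in ob/ob than in HFD, by 0.91 and 1.33 (limma unadjusted p = 0.00469 and 0.0281). Vsig4 was at 5.36 and 7.25 in the ob/ob replicates and at 4.80 to 5.09 in HFD.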

How the results depend on the processing

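HFD replicate 1 decided most calls. In limma, leaving out each mouse in turn gave between 0 and 6 of the 9 genes with an adjusted p-value under 0.05 for HFD against LFD, 0 and 3 for ob/ob against LFD, and 0 and 6 for the obese mean, where all genes numbered 0 to 2812, 0 to 89 and 0 to 3326, with 0 to 1 for ob/ob against HFD. Of the further complement genes, 0 to 11 passed adjustment in the obese mean, and 5 to 11 were higher and 2 to 4 lower at an unadjusted p under 0.05. No share of all genes is given for these unadjusted counts, so they have no background here. Between ob/ob and HFD, 0 to 4 of the 9 genes passed the unadjusted limit, with 4 without ob/ob replicate 1 (4% of all genes higher). Leave-one-out ranges that include a change of direction were -0.25 to 0.24 for C3 in ob/ob against LFD, -0.046 to 0.39 for C3 and -0.055 to 0.31 for C4b in the obese mean, -0.18 to 0.18 for C4b in HFD against LFD, and -0.025 to 0.52 for C4b and -0.24 to 0.23 for Cfb in ob/ob against HFD. Array weights, in which HFD replicate 2 weighed 9.36 and HFD replicate 1 0.273, gave 7 of 9 genes (of 6656 in all) for HFD, 6 of 9 (of 4286) for the obese mean and 14 of the further genes. With only the compared groups, 2 of 9 (C1qa and C1qb, of 38 genes) passed for ob/ob and 1 gene in all for HFD. With the acinar mean as a covariate, 1 gene passed in both ob/ob comparisons and in the obese mean. At the unadjusted limit, 4 of 9 then passed in ob/ob against HFD (4.29% of all genes higher). In the obese mean 6 of the further genes were higher, where 6.75% of all genes were, and 2 lower, with no share given. Median centring gave 2 of 9 in ob/ob against HFD (2.33%).

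With the macrophage mean as a covariate, 1, 0 and 1 of the 9 genes passed the unadjusted limit in HFD, ob/ob and the obese mean, and 2 further genes were higher and 1 lower. In that obese mean 2.48% of all genes were higher and 2.96% lower. With the fibroblast mean the counts were 1, 2 and 1, and 3 and 0. No share of all genes is given for the fibroblast, HFD and ob/ob fits, so those counts have no background here. Directions that turned did so without passing adjustment. With the macrophage mean, C4b became -0.65 and Serping1 -0.048 for HFD, C3 -0.61, C4b -0.86, C5ar1 -0.15 and Serping1 -0.73 for ob/ob, C4b -0.21, Cfb -0.22, C3ar1 -0.048 and C5ar1 -0.34 for ob/ob against HFD, and C3 -0.28, C4b -0.76, Serping1 -0.39, Cd93 -0.41, Colec12 -0.11, Fcna -0.096, Itgax -0.78, Itgb2 -0.75, Cpn1 1.45 and Vtn 1.19 for the obese mean. With the fibroblast mean, C4b became -0.77 for HFD, C3 -0.41, C4b -0.75 and Serping1 -0.36 for ob/ob, Cfb -0.034 for ob/ob against HFD, and C3 -0.16, C4b -0.76, Serping1 -0.16, Cd93 -0.36, Colec12 -0.019, Fcna -0.030, Itgax -0.65, Itgb2 -0.63, Cpn1 1.70 and Vtn 1.46 for the obese mean. With the acinar mean, C4b became -0.28 for HFD, -0.060 for ob/ob and -0.17 for the obese mean, and C3 -0.078 for ob/ob. C4b was -0.049 for HFD and C3 -0.053 for ob/ob with median centring, C3 -0.036 for ob/ob and Cfb -0.37 for ob/ob against HFD with array weights, and Cfb -0.0057 there with quantile normalization. The causes were not tested.

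With the replicate block, 3 of 9 genes passed the unadjusted limit in ob/ob against HFD (1.89% of all genes higher), C3 became -0.050 for ob/ob against LFD, and 0 of 9 genes passed adjustment in any comparison. Same-numbered LFD and HFD mice had deviations that correlated at -0.0595, 0.113 and -0.281, LFD and ob/ob mice at -0.0967 and 0.128, and HFD and ob/ob mice at 0.592 and 0.303. As not every pair was above 0.1, the main fit used no replicate block. Deviations from a group mean sum to 0 within the group, so these correlations depend on each other. They cannot decide whether the numbers pair the mice.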
